A study of Homo sapiens with 9 samples.

Results

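The APOBEC3 genes are a human family of 7 cytidine deaminases, APOBEC3A, APOBEC3B, APOBEC3C, APOBEC3D, APOBEC3F, APOBEC3G and APOBEC3H, that lie side by side on chromosome 22. All 7 were taken by symbol, and all 7 were found among the 78894 Ensembl gene identifiers measured. Of them, 5 (APOBEC3B, C, D, F and G) had enough signal for testing, and APOBEC3A and APOBEC3H did not.

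APOBEC3 enzymes remove an amine from cytosine in single-stranded DNA and leave uracil, which mutates retroviral genomes and, when it happens in the cell's own DNA, the tumour genome. APOBEC3A and APOBEC3B are the members most often linked to such mutations in head and neck squamous cell carcinoma. Their transcripts are known to respond to different inputs, among them interferon, NF-kB signalling, and the cell cycle through the DREAM repressor and p53.

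RNA was sequenced from CAL27, an established line of tongue squamous carcinoma cells, in a series on an enhancer in head and neck cancer. There were 3 Control samples, and 2 samples for each of the CRISPR knockouts A8ko, C9ko and A2ko, with no drug or other treatment. The labels name neither the edited sequence nor whether a group is a clone or a pool, and nothing says that samples of a group are separate cultures, so p-values measure only the spread between these samples. The 2 A8ko files were identical to each other, as were the 2 A2ko files, so the 9 samples stand for 7 distinct libraries: 3 of Control, 2 of C9ko, and 1 each of A8ko and A2ko. Levels are TPM, transcript shares scaled to gene length and to a fixed total. TPM keeps no record of depth, so the depth is unknown.

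In each library, all 12 squamous epithelial markers examined were at 1 TPM or more, and their summed level was 17470 to 18659 TPM in Control, 8680 in A8ko, 11268 to 11501 in C9ko and 7288 in A2ko, and the part of this in the APOBEC3 differences was not tested. Of 12 blood cell markers, 1 or 2 reached 1 TPM, with CD14 the highest at 14.2 to 52.5 TPM, while the pan-leukocyte gene PTPRC was at most 0.0232 TPM and the lymphocyte genes CD3D, CD2 and MS4A1 were listed at 0 throughout. Of 7 fibroblast markers, 2 or 3 reached 1 TPM. COL1A1 was at 5.56 to 13.4 TPM, COL1A2 at 1.02 to 2.12 and LUM at 0.440 to 2.92, while COL3A1 was listed at 0. Mitochondrial transcripts took 17.9% to 26.9% of TPM. Fewer cells of a type and less RNA per cell cannot be told apart in these bulk samples.

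In the GENCODE release 29 annotation on GRCh38, the 7 genes are on the forward strand of chromosome 22, in the order of their letters, from position 38952741 to position 39104067. Every member has at least 1 zinc-coordinating deaminase motif (His, any residue, Glu, then Pro-Cys and a Cys). In the coding sequences examined, APOBEC3A, C and H held 1 such motif and 183 to 199 codons, while APOBEC3B, D, F and G held 2 motifs and 373 to 386 codons.

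APOBEC3A and APOBEC3B, the members most tied to tumour mutations, are alike at their catalytic centre, and 19.9% of the 50-base windows of the APOBEC3A transcript recurred in that of APOBEC3B. The stretch that encodes the last motif of each gene is printed here because its 111 bases are the same in both, so that a read from it could come from either. Capitals mark the codons of the histidine, the catalytic glutamate and both cysteines. It lies in exon 3 of APOBEC3A (GRCh38, forward strand, chr22:38961420-38961530) and in exon 6 of APOBEC3B (chr22:38991365-38991475).
APOBEC3A: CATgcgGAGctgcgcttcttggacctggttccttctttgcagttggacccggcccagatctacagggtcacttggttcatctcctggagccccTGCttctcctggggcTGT
APOBEC3B: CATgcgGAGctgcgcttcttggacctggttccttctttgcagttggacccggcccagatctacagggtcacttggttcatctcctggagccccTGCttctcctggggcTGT

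From that motif to the end of the coding sequence, the aligned 390 bases differ at 8 positions. The 60-base window of 1 exon with most of them holds 5 differences, shown in capitals to set beside the identical stretch. It lies in exon 4 of APOBEC3A (chr22:38962098-38962157) and exon 7 of APOBEC3B (chr22:38992034-38992093).
APOBEC3A: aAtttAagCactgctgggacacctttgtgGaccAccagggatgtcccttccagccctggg
APOBEC3B: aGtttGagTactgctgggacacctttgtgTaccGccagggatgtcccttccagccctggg

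Over whole transcripts, 35.9% of the 50-base windows of APOBEC3B were also found in another member. The share was 24.0% for APOBEC3F, 22.6% for APOBEC3A, 19.1% for APOBEC3G, 15.2% for APOBEC3D, 1.16% for APOBEC3C and 0% for APOBEC3H. How the authors assigned reads that match several genes, and the read length, are not given in the sources used here, so the split between near-identical members is uncertain. The annotated APOBEC3A gene also runs on across APOBEC3B, to position 38992778, through 1 transcript with an exon in APOBEC3B, which was left out of these window counts. APOBEC3B-AS1, on the opposite strand, was at most 0.0176 TPM.

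APOBEC3C was the most abundant member in Control cells and APOBEC3G the next. The mean Control level was 44.7 TPM ± 2.15 (SD, n = 3) for APOBEC3C, 30.2 ± 2.31 for APOBEC3G, 12.9 ± 0.185 for APOBEC3B, 11.8 ± 0.454 for APOBEC3F, 1.44 ± 0.237 for APOBEC3D, 0.337 ± 0.142 for APOBEC3A and 0.114 ± 0.0440 for APOBEC3H. No neighbours in this order overlapped over the Control libraries, but APOBEC3B and APOBEC3F were close (12.8 to 13.15 and 11.6 to 12.4 TPM), and so were APOBEC3A and APOBEC3H (0.209 to 0.490 and 0.0812 to 0.164 TPM). The first of these orders was turned in A2ko, where APOBEC3F was above APOBEC3B, and the other in A8ko, where APOBEC3H was above APOBEC3A.

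**Figure D1:**
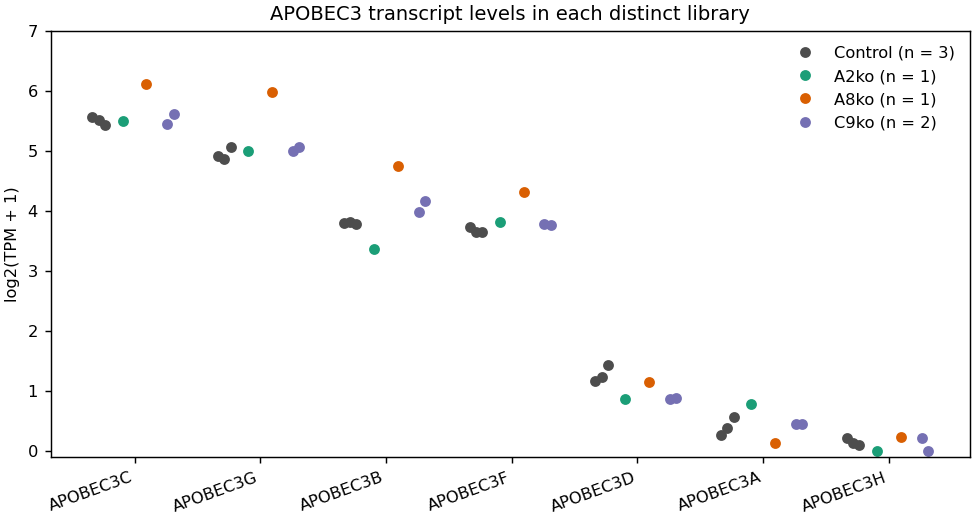
Level of each APOBEC3 gene, as log2(TPM + 1), in each distinct library, with members ordered by their Control mean and 1 point per library. In APOBEC3C, G, B and F the A8ko point lies above all other libraries, while APOBEC3D, A and H lie below 2 on this scale in all 7 libraries.

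In the A8ko library, APOBEC3B, APOBEC3C, APOBEC3F and APOBEC3G were 1.53 to 2.08 times their Control mean, and APOBEC3D and APOBEC3A were not higher. A8ko is 1 library, so no p-value can be given for it. Differences below are of log2(TPM + 1), a scale that shrinks the change of genes with low levels. The summed level of the 7 members was 103.1, 99.7 and 101.9 TPM in the Control libraries, 177.4 in A8ko, 102.5 and 111.8 in C9ko, and 99.5 in A2ko. The A8ko library alone stood far from the rest.

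APOBEC3G, a cytoplasmic enzyme with paired domains that is packaged into HIV particles when the viral Vif protein is missing, was at 29.5, 28.3 and 32.8 TPM in Control and 62.7 in A8ko. It was 31.3 in A2ko, and 30.9 and 32.5 in C9ko. The A8ko level was thus 2.08 times the Control mean (log2 difference 1.03), and the A2ko and C9ko libraries lay within the Control range.

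APOBEC3B, the member found mainly in the nucleus, was at 12.9, 13.15 and 12.8 TPM in Control and 26.1 in A8ko, 2.02 times the Control mean (log2 difference 0.96). It was 9.39 in A2ko, and 14.8 and 17.1 in C9ko. No knockout library overlapped with Control: A2ko lay below and the others above.

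APOBEC3C, a single-domain enzyme with weak activity against HIV, was at 46.7, 44.9 and 42.4 TPM in Control, 68.2 in A8ko, 42.6 and 48.4 in C9ko, and 44.2 in A2ko. The A8ko level was 1.53 times the Control mean (log2 difference 0.60), and the C9ko libraries lay within the Control range and just above it.

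APOBEC3F, which also enters HIV particles and is close in sequence to APOBEC3G, was at 12.4, 11.6 and 11.6 TPM in Control, 19.0 in A8ko, 12.8 and 12.6 in C9ko, and 13.08 in A2ko. The A8ko level was 1.60 times the Control mean (log2 difference 0.64), and every other knockout library lay just above the highest Control.

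APOBEC3D, a further member with paired domains that restricts HIV, was at 1.25, 1.36 and 1.70 TPM in Control, 1.23 in A8ko, 0.832 and 0.856 in C9ko, and 0.823 in A2ko. All knockout libraries lay below Control, A8ko only just (log2 difference -0.12, against -0.41 in A2ko and -0.40 in C9ko). APOBEC3D reached 1 TPM only in Control and A8ko and was kept for testing through them. A gene kept in this way is prone to be lower in C9ko and A2ko.

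APOBEC3A, a single-domain enzyme with strong activity on DNA, was at 0.209, 0.311 and 0.490 TPM in Control, 0.0948 in A8ko, 0.368 and 0.378 in C9ko, and 0.736 in A2ko. It was under 1 TPM in each library, its Control libraries spread more than 2-fold, and no test was made. The ratio of APOBEC3B to APOBEC3A was 61.6, 42.3 and 26.1 in Control, 275.6 in A8ko, 40.3 and 45.2 in C9ko, and 12.8 in A2ko. With APOBEC3A this low, the ratio does not rank the groups. The summed TPM of both genes was 13.3 TPM ± 0.177 in Control (SD, n = 3), 26.2 in A8ko, 15.2 and 17.5 in C9ko, and 10.1 in A2ko, the same order of groups as for APOBEC3B alone.

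APOBEC3H, a member whose common variants differ in protein stability, was at 0.164, 0.0958 and 0.0812 TPM in Control, 0.176 in A8ko, and 0.168 in the first C9ko library. It was listed at 0 in A2ko and in the second C9ko library. These levels are too low to rank the groups.

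Counted across genes, A8ko had 1 of the 5 tested members (APOBEC3G) beyond all Control libraries by 1 log2 unit or more from their mean, a rule that 4.73% of the 17100 tested genes met. At a distance of at least 0.5 log2 units, 4 of the 5 (APOBEC3B, C, F and G) were above every Control library, against 10.4% of tested genes above and 8.47% below. The share of tested genes with a difference at least as high was 1.89% for APOBEC3G, 2.35% for APOBEC3B, 6.43% for APOBEC3F and 7.22% for APOBEC3C. The median difference of all tested genes in A8ko was 0.09. After scaling that removes this shift (the median of ratios), APOBEC3G was at 0.93, APOBEC3B at 0.86, APOBEC3F at 0.54 and APOBEC3C at 0.50, so APOBEC3G no longer reached 1. It was also under 1, at 0.99, without Control 2.

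APOBEC3C was the largest part of the summed level in all 7 libraries, followed by APOBEC3G. APOBEC3C made up 44.0% ± 2.03 of the summed TPM in Control (SD, n = 3) and 38.4% in A8ko. APOBEC3G made up 29.7% ± 2.13 in Control and 35.3% in A8ko. APOBEC3B made up 12.7% ± 0.375 in Control, 14.7% in A8ko, 14.5% and 15.3% in C9ko, and 9.43% in A2ko.

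**Figure D2:**
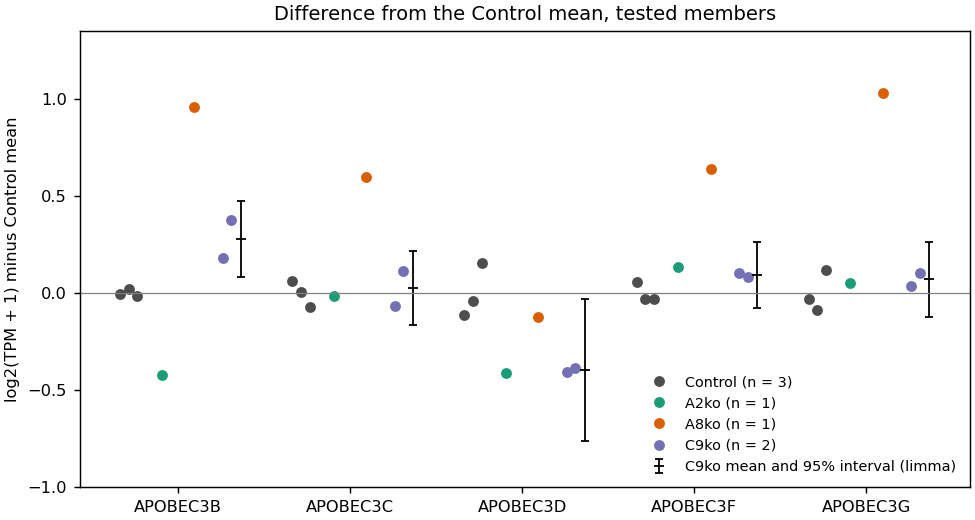
Difference of log2(TPM + 1) from the Control mean for the 5 tested members, 1 point per distinct library, with the C9ko mean and its 95% interval from limma in black. A8ko lies at 0.60 to 1.03 for APOBEC3B, C, F and G and at -0.12 for APOBEC3D, and only the C9ko intervals of APOBEC3B and APOBEC3D leave out 0. APOBEC3D was under 1 TPM in C9ko and was kept for testing through Control and A8ko.

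In A2ko, the summed APOBEC3 level, 99.5 TPM, lay just under the lowest Control library at 99.7. Of the tested members, APOBEC3B and APOBEC3D were below every Control library. The share of all tested genes below Control at any distance was not counted. APOBEC3B was at 9.39 TPM against 12.9 ± 0.185 (log2 difference -0.42, 0.726 times the Control mean). APOBEC3D was at 0.823 against 1.44 ± 0.237 (log2 difference -0.41, 0.572 times). It was kept for testing through Control and A8ko, so no fall of APOBEC3D can be read from this. APOBEC3C, F and G differed by -0.01, 0.13 and 0.05 on the log2 scale. None of the 5 tested members was outside the Control range by at least 1 log2 unit, a rule met by 5.07% of tested genes. None passed at 0.5 log2 units, where 6.26% of tested genes were lower and 16.6% higher. This turned with the settings: APOBEC3B was at -0.54 after median-of-ratios scaling, and APOBEC3D at -0.54 and -0.73 with pseudocounts of 0.5 and 0.1. The share of tested genes passing at 0.5 log2 units was not counted under these settings. At 1 log2 unit, 867 genes were counted in the main setting, 803 after that scaling, and 1226 and 1813 with these pseudocounts. The median of all tested genes in A2ko was 0.12, and 8.39% of tested genes had a difference as low as that of APOBEC3B.

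In C9ko, the knockout with 2 libraries, APOBEC3B rose by 0.28 on the log2 scale (SE 0.08, limma adjusted p = 0.0442, higher in 2 of 2 libraries), and no other tested member passed. That is 1 of 5 members called, where 29.5% of all tested genes were called, 22% higher and 7.42% lower. The call for APOBEC3B was lost when any of the 3 Control libraries was left out (limma adjusted p from 0.0884 to 0.107) and without C9ko 2 (difference 0.18, limma adjusted p = 0.235). It was also lost after median-of-ratios scaling (0.15, limma adjusted p = 0.163), where the median of all tested genes, 0.11 before, was near 0.

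APOBEC3D differed by -0.40 in C9ko (SE 0.15, 95% interval -0.76 to -0.03) with a limma adjusted p of 0.0966, lower in 2 of 2 libraries. It was under 1 TPM in both and was kept for testing through Control and A8ko, so no fall can be read from this interval. APOBEC3C differed by 0.02 (95% interval -0.17 to 0.21), APOBEC3F by 0.09 (-0.08 to 0.27) and APOBEC3G by 0.07 (-0.12 to 0.26), so a rise of the size seen in A8ko lies outside each of these 3 intervals. Whether C9ko and A8ko differ was not tested. The sum of all 7 members differed by 0.08 in C9ko (SE 0.06).

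With the 3 knockout groups set against Control as 3 values, no member passed, and 1.03% of tested genes did. The differences were 0.27 for APOBEC3B, 0.20 for APOBEC3C, -0.31 for APOBEC3D, 0.29 for APOBEC3F and 0.38 for APOBEC3G, with limma adjusted p from 0.431 to 0.706, and none had an unadjusted p under 0.05. When the knockout average was instead tested against the spread within groups, which leaves the spread between knockouts out of the error, 3 members passed (APOBEC3B, F and G), as did 25.5% of tested genes.

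Most genes beside the cluster were near their Control level in A8ko. Over 40 other tested genes within 1 Mb, the median difference was 0.08 in A8ko, 0.06 in C9ko and 0.15 in A2ko. In A8ko 1 of them was higher and 1 lower by at least 1 log2 unit outside the Control range, a share near the 4.73% of all tested genes. At a distance of at least 0.5 log2 units, 5 were above every Control library and 3 below, against 10.4% and 8.47% of tested genes. The nearest tested genes on either side are the Polycomb chromobox genes CBX6 and CBX7, and they differed by 0.04 and -0.03 in A8ko.

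The gene higher in A8ko was PDGFB, a platelet-derived growth factor chain, at 9.58 TPM ± 0.395 in Control (SD, n = 3), 30.2 in A8ko, 31.2 and 34.1 in C9ko, and 6.89 in A2ko. It rose in C9ko by 1.67 (SE 0.08, limma adjusted p = 3.26e-05). SYNGR1, a synaptic vesicle protein gene, was the lower one, at 7.25 TPM ± 1.07 in Control, 2.27 in A8ko, 0.966 and 1.14 in C9ko, and 16.7 in A2ko. In C9ko it fell by 2.00 on the log2 scale (SE 0.13, limma adjusted p = 0.000114). Both genes thus stood on the same side of Control in A8ko and C9ko. So did APOBEC3B (0.96 in A8ko and 0.28 in C9ko), APOBEC3F (0.64 and 0.09) and APOBEC3D (-0.12 and -0.40). APOBEC3C and APOBEC3G were above Control in A8ko (0.60 and 1.03) and overlapped with it in C9ko (0.02 and 0.07). CBX6 fell in C9ko by 0.56 (SE 0.07, limma adjusted p = 0.00133). GTPBP1, a GTP-binding protein, rose there by 0.36 (limma adjusted p = 0.0125). NPTXR, a neuronal pentraxin receptor, was higher there by 0.59 (limma adjusted p = 0.0303). It was at 0.502 TPM ± 0.0936 in Control, 0.529 in A8ko, 1.40 and 1.13 in C9ko, and 3.25 in A2ko. NPTXR was kept for testing through C9ko and A2ko alone, so no rise can be read from its p-value. In the list of 23 neighbouring genes written by name, 18 were tested. In C9ko 4 rose, NPTXR among them, and 2 fell, near the shares of all tested genes (22% and 7.42%). After median-of-ratios scaling 3 rose and 4 fell. These shares do not apply there, since 54.6% of the 4813 genes called were higher, against 74.8% of 5038 before.

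**Figure D3:**
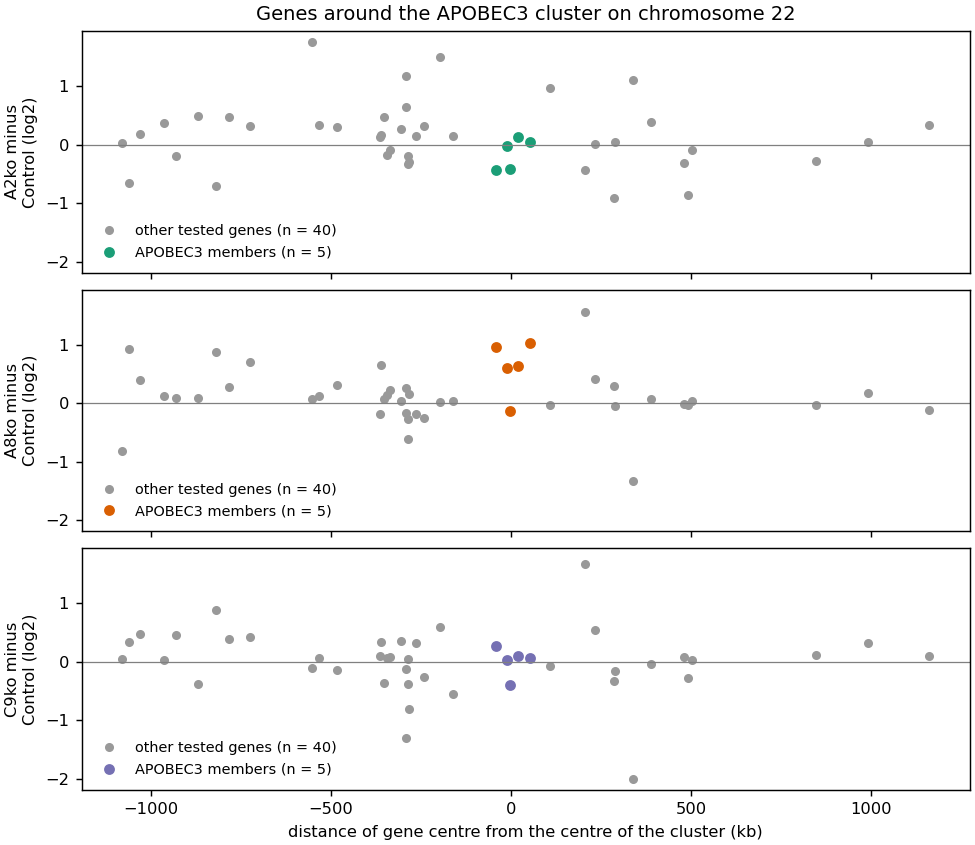
Log2 difference from Control of APOBEC3 members (coloured) and of 40 other tested genes within 1 Mb (grey), against the distance in kb of each gene's centre from the centre of the cluster, with a panel per knockout. In A8ko, 4 APOBEC3 members stand at 0.60 to 1.03, and CBX6 and CBX7 beside them stand near 0. The 40 other genes run from -1.33 (SYNGR1) to 1.56 (PDGFB) there. Of these, 5 stand above every Control library by at least 0.5 log2 units and 3 below.

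Other antiviral restriction factors, several of which are interferon-induced as APOBEC3G can be, were mostly lower in the A8ko library. Of 23 such genes, all tested, 6 had a positive difference and 10 were below every Control library by at least 0.5 log2 units, against 8.47% of tested genes, and 1 was above (10.4%). Their median was -0.37, against 0.09 for all tested genes. The 2 lowest, named after their values were seen, were TRIM22, a ubiquitin ligase that restricts HIV transcription (22.7 TPM ± 0.455 in Control, n = 3, and 7.86 in A8ko), and MX1, an influenza-restricting GTPase (82.6 ± 6.41 and 32.5). In the same library APOBEC3G was 2.08 times its Control mean, and the part of interferon in these levels was not tested. In C9ko, 10 of the 23 rose and 2 fell, where 22% of all tested genes rose and 7.42% fell. MX2, which blocks HIV nuclear import, rose by 0.93, the membrane protein IFITM1 by 0.81 and the exonuclease ISG20 by 0.78, while SERINC5 fell by 0.70 and IFITM2 by 0.38 on the log2 scale. The limma adjusted p of these 5 ran from 0.000403 to 0.00471.

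Interferon receptors and their signalling genes showed a median difference of 0.07 in A8ko, 0.38 in C9ko and 0.30 in A2ko. Of 20 tested, 13 rose and 1 fell in C9ko, against 22% and 7.42% of all tested genes. JAK2, a kinase of interferon gamma receptors, rose by 1.06, the receptor chains IFNGR2 and IFNAR1 by 0.82 and 0.77, and the interferon lambda receptor gene IFNLR1 fell by 0.48 on the log2 scale (limma adjusted p from 0.000289 to 0.0109). In A2ko, 8 of the 20 were above every Control library by at least 0.5 log2 units, against 16.6% of tested genes, and 1 was below. IRF9, the DNA-binding part of the interferon-activated factor ISGF3, was 10.1 TPM ± 3.61 in Control (SD, n = 3), 4.003 in A8ko, 13.4 and 13.8 in C9ko, and 47.4 in A2ko. It was named after its values were seen. APOBEC3G in the A2ko library differed from Control by 0.05, and a link between interferon signalling and APOBEC3 levels was not tested.

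NF-kB genes, among the known inducers of APOBEC3B, had a median of 0.26 in A8ko, 0.46 in C9ko and 0.17 in A2ko. Of 17 tested, 9 rose in C9ko and none fell, against 22% and 7.42% of all tested genes. MAP3K14, the kinase of the alternative NF-kB pathway, rose by 1.09, RELB, a subunit that acts in it, by 0.95 and the inhibitor NFKBIA by 0.81 (limma adjusted p from 0.000147 to 0.000872). In A8ko, RELB was 34.3 TPM against 17.7 ± 0.477 in Control and NFKBIA 233.7 against 118.5 ± 11.8 (n = 3), and 7 of the 17 were above every Control library by at least 0.5 log2 units, against 10.4% of tested genes.

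APOBEC3B is repressed in resting cells through the DREAM complex. The list of DREAM, RB, E2F and p53 genes holds other regulators as well as repressors. Their median was 0.25 in A8ko, 0.27 in C9ko and 0.04 in A2ko. In A8ko, 20 of the 22 tested were above the Control mean, and 5 were above every Control library by at least 0.5 log2 units, against 10.4% of tested genes, whose median was 0.09. In C9ko, 10 rose and none fell (22% and 7.42% of all tested genes), among them the repressor E2F8 by 0.56 and the pocket proteins RBL1 by 0.41 and RBL2 by 0.39 (limma adjusted p from 0.00675 to 0.0125).

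Repair of the uracil that APOBEC3 enzymes leave in DNA was measured through 21 genes. Their median was 0.22 in A8ko, 0.15 in C9ko and 0.01 in A2ko, and in C9ko 4 rose and none fell, a share near that of all tested genes (22% rose and 7.42% fell). TDG, a thymine and uracil glycosylase, rose by 0.51 (limma adjusted p = 0.00505), DUT, which keeps uracil out of the nucleotide pool, by 0.38 (0.00919), and the flap endonuclease FEN1 by 0.31 (0.0477, and 0.104 after median-of-ratios scaling). Of the other deaminase relatives outside the cluster, 1 of 6 genes was tested, the APOBEC1 cofactor RBM47, at 37.7 TPM ± 1.44 in Control (SD, n = 3), 35.1 in A8ko, 39.1 and 40.1 in C9ko, and 27.2 in A2ko (C9ko against Control, limma adjusted p = 0.439). APOBEC1, the RNA-editing relative, was listed at 0 in all 7 libraries.

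**Figure D4:**
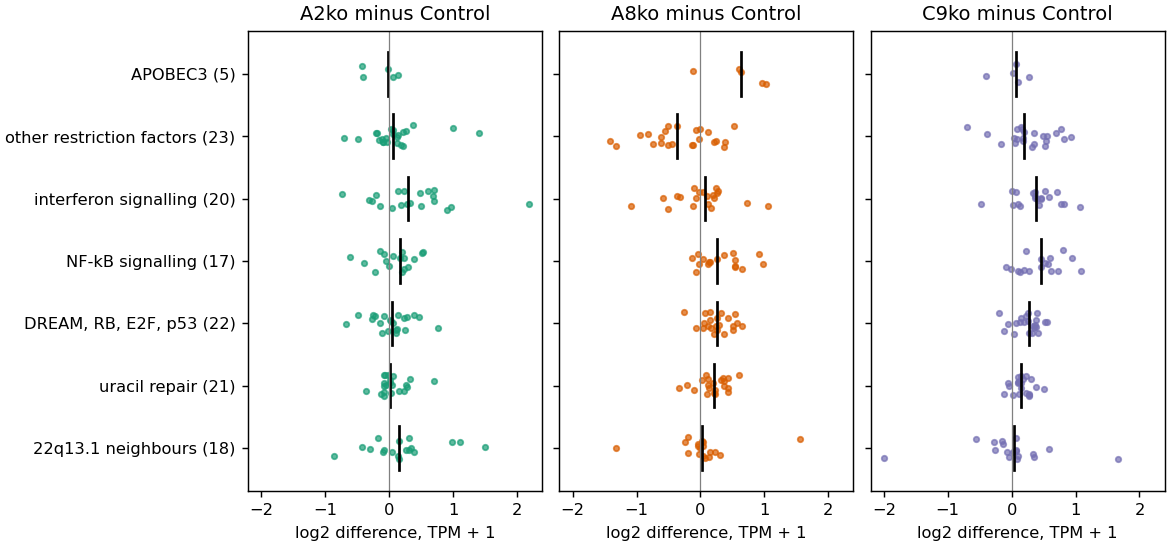
Log2 difference from Control of each tested gene in 7 lists (points, with the number of genes in brackets) and the list's median (black bar), with a panel per knockout. In A8ko the APOBEC3 median is 0.64 and that of other restriction factors is -0.37.

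The genes whose levels followed a member most closely over the 7 libraries were found by the root mean square distance of their log2 values, each taken from the gene's own mean. For APOBEC3B these were C11orf68 (distance 0.07), DUSP5, a phosphatase of ERK (0.10), and HMGA1, a chromatin protein (0.10). HMGA1 was 758.1 TPM on average in Control, 1205 in A8ko, 846.3 and 882.0 in C9ko, and 545.9 in A2ko. For APOBEC3G these were ZNF165, SLC6A15 and ST3GAL5 (0.10 to 0.12), and for APOBEC3C they were EGLN3, AP1S2 and SLC29A1 (0.04 to 0.07). None of these 9 lies on chromosome 22.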

How the data were processed

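The deposited values are TPM per Ensembl gene, computed by the authors. The genome build is hg38 per the submitters' processing notes, and libraries were made from polyA RNA by the dUTP method per the labels' protocols. The quantification tool, annotation and use of strand are not given in the sources used here. Identical files were counted once. Symbols matched 61463 of 78894 identifiers. Values were analysed as log2(TPM + 1), and genes with at least 1 TPM in at least 2 distinct libraries were tested (17100). limma 3.58.1 in R 4.3.3 compared C9ko with Control in a fit of all 4 groups (eBayes with trend), and the means of 3 knockout groups with 3 Control libraries, with p-values adjusted over all tested genes (Benjamini-Hochberg) and calls at an adjusted p under 0.05. A2ko and A8ko, with 1 library each, were described by their distance from the Control range. The fits were tested on simulated data. The members and lists were chosen with earlier results of these data known. Named list genes were those called in C9ko with the largest difference, up to 3 per direction, or the largest where none was called. Positions and transcript sequences came from GENCODE release 29 on GRCh38. Alternatives changed the pseudocount, filter, scaling, trend, groups in the fit, replicate block, treatment of identical files and libraries left out.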

Additional observations from a re-analysis of the deposited data

Results flagged for a closer look

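APOBEC3B was above every Control library in A8ko and below each of them in A2ko, and these 2 libraries differed by 1.38 on the log2 scale. It was likewise above Control in both C9ko libraries and below in A2ko, a difference of 0.70. APOBEC3A went the other way, above every Control library in A2ko and below in A8ko, a difference of 0.66 at levels under 1 TPM. APOBEC3H was above Control in A8ko and listed at 0 in A2ko, a difference of 0.23 at levels under 0.2 TPM. Each was picked out because groups lay on opposite sides of Control, and none of these 4 differences was tested, since A2ko and A8ko are 1 library each.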

How the results depend on the processing

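The A8ko differences of APOBEC3B, C, F and G stayed positive under every alternative run, from 0.50 to 1.09. The A8ko count of members at least 1 log2 unit outside the Control range (1) was 2 with a pseudocount of 0.1, 0 after median-of-ratios scaling, 0 without mitochondrial transcripts, 4 at 0.5 log2 units and 0 to 1 when a Control library was left out. Genes so counted numbered 1689 (pseudocount 0.1) and 3226 (0.5 log2 units) in place of 809 for A8ko, and 1813 and 3903 in place of 867 for A2ko.

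The C9ko call of APOBEC3B was lost without a filter on low values, after median-of-ratios scaling, without mitochondrial transcripts, and in the replicate block fit, which leaves 0 members called. Leaving out libraries gave 0 to 1 members, and counting all 9 files as libraries gave 2. Without a trend APOBEC3B missed the threshold (limma adjusted p = 0.0656) and APOBEC3D passed it (0.0380). All genes called (5038) numbered 3301 to 4174 with libraries left out, 8166 with 9 files and 3248 with the replicate block, where APOBEC3B differed by 0.27 (limma adjusted p = 0.166). Replicate numbers showed no sign of pairing (correlation of deviations -0.05 for number 1 and -0.01 for number 2). With 2 C9ko libraries the deviations of C9ko mirror each other, so these values cannot decide whether samples were paired. Of the C9ko calls 74.8% were higher, 54.6% after median-of-ratios scaling and 60.7% without mitochondrial transcripts.

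For all knockouts, 176 genes were called, 23 without a filter, 5 to 11 without a Control library, 1993 without A2ko, 67 without C9ko and 4361 when tested against the spread within groups, where 3 members passed.

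Small differences changed sign. In A2ko, APOBEC3C was 3.29e-05 without mitochondrial transcripts and -0.049 to 0.018 with a Control library left out, and APOBEC3G was -0.074 after median-of-ratios scaling. In C9ko, that scaling gave -0.11 for APOBEC3C, -0.030 for APOBEC3F and -0.058 for APOBEC3G, and leaving out mitochondrial transcripts gave -0.074 for APOBEC3C and -0.027 for APOBEC3G. APOBEC3C was -0.065 to 0.11 with a library left out and -0.011 with the replicate block. The sum of APOBEC3D and APOBEC3F differed by 0.026, since APOBEC3F dominates it. Over all knockouts, APOBEC3B was -0.073 without A8ko. The cause was not tested for any other change. With median-of-ratios scaling, C9ko calls were 10 higher and 1 lower for interferon signalling, 8 and 0 for NF-kB, and 7 and 0 for DREAM genes. They were 8 and 3 for restriction factors, and 2 and 0 for uracil repair. Of all tested genes, 4813 were called under this scaling, 54.6% of them higher. The shares of all tested genes given above for C9ko are those of the main setting. Depth is unknown, and APOBEC3A and APOBEC3H are too low to compare.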
